A study of Canis lupus familiaris with 11 samples.

Results

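The resting wild-type MDCKII sheet was profiled from 3 RNA-sequencing libraries, out of 11 in the whole series. They are the libraries whose labels name unmodified cells that were grown but not compressed. MDCKII cells come from dog kidney tubules and are widely used to study how epithelia seal, polarise and transport. The cells are labelled wild type, were kept at 37 °C in MEM with 10% fetal bovine serum and antibiotics, and were collected as a confluent monolayer after 3 to 4 d. These conditions follow the sample labels; the series' own design text names other times. The other 8 libraries, from compressed cells or from a derivative lacking LMNA, were not used. The labels number the libraries as replicates 1, 2 and 3 but do not say that they came from separate cultures, so the spread given here may be technical. There is a single group, and no comparison between conditions was made or tested.

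Each segment of a kidney tubule carries its own transporters. The proximal tubule takes back glucose, phosphate and proteins through the brush border, the thick ascending limb takes up sodium chloride, and the collecting duct holds principal cells, which take up water through AQP2, and intercalated cells, which move acid. Neighbouring cells are joined by tight junctions, whose claudins either seal the gap or form ion pores, by cadherin-based adherens junctions and desmosomes, and by gap junctions built from connexins. In kidney tubule cells the sodium pump on the basolateral side drives most transport.

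Levels are deposited FPKM (fragments per kilobase of gene length, scaled to library size). They allow for gene length only as far as the deposited gene models hold the whole transcript, which many do not. Orders between genes therefore depend on the length used. Values given in threes are libraries 1, 2 and 3 in that order, and a mean ± value is the mean and SD over them (n = 3). Totals ran from 12715099 to 15895296 counts per library. A gene is called present here where it reached 1 FPKM in all 3 libraries. This held for 11483 of 26178 genes (43.9%), and for 10384 of 19856 protein-coding genes (52.3%), the share against which the gene lists below can be read. The median protein-coding gene stood at 2.05 FPKM. At the upper end 6455 genes reached 10 FPKM in every library, 812 reached 100 and 56 reached 1000, while 9028 genes had no read in any library.

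Library 1 stood apart from libraries 2 and 3. Across 12271 genes with a mean of at least 1 FPKM, log2(FPKM + 1) values of libraries 2 and 3 had a Pearson correlation of 0.984, against 0.950 for libraries 1 and 2 and 0.969 for libraries 1 and 3; genes are not independent replicates. The mRNA encoded by mitochondrial DNA made up 7.01% of summed FPKM in library 1 and 4.66% and 4.60% in libraries 2 and 3. Library 1 also read long genes higher. In the 2265 genes with the longest models its log2 value lay a median of 0.14 above the mean of the libraries, and in the 2265 shortest it lay at -0.17, while library 2 showed the reverse with -0.12 and 0.15. The part of these differences in the results was not tested, so key values are given by library.

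Of the 5 markers of tubule epithelium, 4 were present and CDH16 was not. KRT8, KRT18 and CDH1 are epithelial markers that are not limited to kidney. Of the kidney-linked PAX8 and CDH16, only PAX8 was present. KRT8 and KRT18, the keratin pair of simple epithelia, had 1025, 1973 and 1505 FPKM and 323, 727 and 569 FPKM. Both were lowest in library 1 and highest in library 2. They have many processed copies in the genome, and 8 rows of the table matched KRT8 and 10 matched KRT18, so reads of near-identical copies could have been split. CDH1, the epithelial cadherin (chromosome 5, 80759109 to 80930552, minus strand, CanFam3.1), had 120.2, 140.2 and 141 FPKM, a narrow range that put it at rank 655 of all genes by median. PAX8, the kidney-lineage transcription factor (chromosome 17, 37302521 to 37363225, minus strand), had 59.1, 36.1 and 35.04 FPKM, highest in library 1. CDH16, the kidney-specific cadherin of tubule cells (chromosome 5, 82398187 to 82411342, plus strand), gave only 14, 22 and 16 reads, which is 0.171, 0.230 and 0.150 FPKM. All of its libraries were well below 1 FPKM, so the CDH16 marker was absent at the level used here.

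The most abundant genes encoded mitochondrial, ribosomal, cytoskeletal, secreted and iron-storage proteins, among others. The 10 most abundant genes held 8.07% ± 0.33 of summed FPKM, the top 100 held 28.0% ± 0.18 and the top 1000 held 61.5% ± 1.01 (SD, n = 3). TMSB10, a small actin-monomer binding protein, led by median with 5673, 7534 and 7431 FPKM. Its gene model covers only 132 bases and it ranked 81 by read count, so its place rests on the length used. SPP1, which encodes the secreted glycoprotein osteopontin (chromosome 32, 11354096 to 11362391, plus strand), had 3992, 6580.1 and 6589 FPKM and ranked first by reads, with 78500, 150603 and 167811. Libraries 2 and 3 nearly coincided for SPP1 and library 1 was lower.

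Of the 25 most abundant genes with a symbol, 6 were mitochondrially encoded, 5 were ribosomal proteins and 6 had models shorter than 500 bases. MT-ATP6, a subunit of ATP synthase, had 9724, 6605 and 6429 FPKM, and MT-CO1, a subunit of cytochrome oxidase, had 7068, 4766 and 4563 FPKM. Library 1 was the highest for 12 of the 13 mitochondrial mRNAs, the exception being MT-CYB with 493, 681 and 632 FPKM. Both chains of ferritin, the iron-storage protein, were in the set. FTL had 3054, 3700.4 and 3242 FPKM and FTH1 had 2084, 1926 and 2149 FPKM, without overlap. However, 17 rows matched FTL and 9 matched FTH1, so reads of near-identical copies could have been split here too. The cytoskeleton contributed ACTG1 (gamma actin), PFN1 (profilin), TUBA1B (tubulin) and VIM, the intermediate filament protein of mesenchymal cells. VIM had 1542, 2381 and 2205 FPKM, above KRT8 in every library. LGALS3, a secreted galactoside-binding lectin, had 1502, 2772 and 2586 FPKM and was lowest in library 1. The glycolytic enzyme GAPDH had 2562, 3492 and 3225 FPKM, but 84 rows matched its symbol, and EIF5AL1, at 1051, 2006 and 1632 FPKM, carries the name of a gene copy, so both levels are uncertain. The remaining nuclear genes were the calcium-binding S100A6 and S100A11, the nucleolar NPM1, and RPS2, RPSA, RPL7, RPL13A and RPL35 of the ribosome. Of these, NPM1, RPS2, RPSA and RPL7 matched 8, 11, 14 and 15 rows, so their levels have the same limit.

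**Figure D1:**
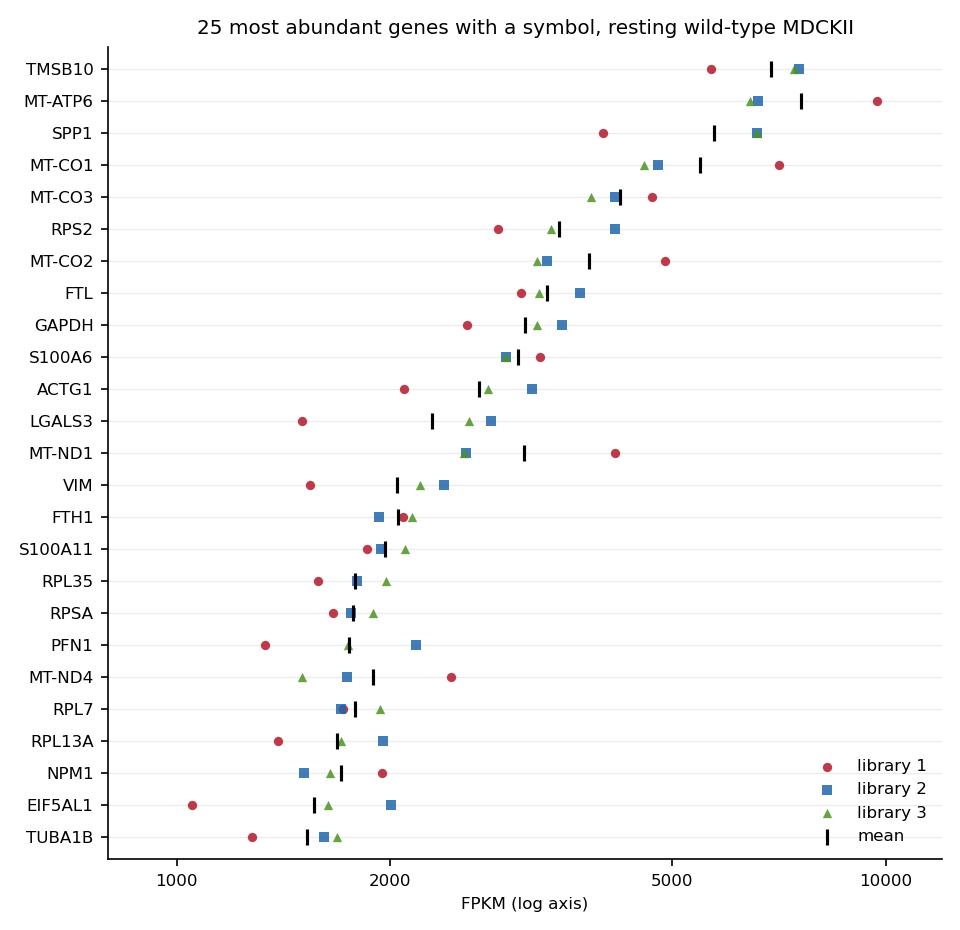
FPKM (log axis) of the 25 most abundant genes with a symbol, ordered by median; points are the 3 libraries and the bar is their mean. Library 1 is the highest for the 6 mitochondrial genes and the lowest for SPP1, LGALS3 and VIM.

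Ranking by reads instead of FPKM favours long genes, and 13 of the 25 were shared. STC1, the secreted glycoprotein stanniocalcin, ranked 3 by reads with 106057, 77632 and 99532 reads and 1979, 1245 and 1434 FPKM. SLC29A1, an equilibrative nucleoside transporter, ranked 18 by reads with an even 633, 674 and 682 FPKM. The chaperone HSPA8 had 1829.6, 1210.1 and 1338 FPKM and the chaperone-like secreted protein CLU had 1189, 666 and 824 FPKM, each highest in library 1. For HSPA8, 5 rows matched, so reads of near-identical copies could have been split. The 79 ribosomal protein genes together made up 10.1% ± 0.74 of summed FPKM.

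Transcription factors of the epithelial and kidney lineages were present at moderate levels. Of the listed epithelial factors 13 of 16 were present, and of the listed nephron factors 16 of 22. KLF5, a zinc-finger factor of proliferating epithelia, led the factors of both lists with 174, 172 and 199 FPKM. ELF3, an ETS factor, had 45.02, 83.05 and 64.5 FPKM. By median, PAX8 lay between the epithelial splicing regulators ESRP1 and ESRP2, which had 43.04, 37.6 and 42.2 FPKM and 31.5, 41.1 and 31.8 FPKM. SIM2, SOX9, PAX2 and EHF then lay between 22.0 and 39.0 FPKM in every library and overlapped each other. SOX9 is a factor of developing and repairing tubules and PAX2 a partner of PAX8 in kidney development. Grainyhead factors of epithelial identity were lower, GRHL1 at 8.76, 9.11 and 9.30 FPKM and GRHL2 at 5.69, 7.40 and 7.79 FPKM.

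Factors tied to a particular segment were weaker. HNF4A, the main factor of proximal tubule maturation, had 1.62, 2.35 and 1.996 FPKM. GATA3, a factor of the collecting duct, had 16.4, 17.2 and 12.6 FPKM and IRX3, of the intermediate nephron, had 13.2, 10.1 and 8.68 FPKM. TFCP2L1, a collecting duct factor, had 2.72, 5.81 and 6.38 FPKM with library 1 below the other two. FOXI1, the master factor of intercalated cells, had no read. Among factors of nephron progenitors and stroma, 3 of 11 were present. OSR1, of the early kidney mesoderm, stood out at 50.6, 114 and 82.4 FPKM with every library apart, and SALL1 had an even 18.7, 18.3 and 18.2 FPKM. WT1, EYA1, CITED1 and TBX18 had no read. Over the whole table, 729 of 1381 genes that the authors' table assigns to a transcription factor family were present (52.8%). The share was 30.2% of 189 homeobox genes and 17.6% of 17 T-box genes, against 72.9% of 48 bZIP genes.

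No nephron segment was represented by most of its genes. The lists of segment genes had 2 of 10 (podocyte), 5 of 33 (proximal tubule), 2 of 15 (thick ascending limb), 6 of 14 (distal convoluted and connecting tubule), 5 of 13 (principal cell) and 2 of 16 (intercalated cell) members present, all below the 52.3% of protein-coding genes. In these bulk libraries, fewer cells of a type and less RNA per cell cannot be told apart.

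Among proximal tubule genes, the 33 members summed to 44.1, 67.01 and 53.5 FPKM. MIOX, the first enzyme of inositol breakdown, had 16.1, 30.8 and 23.8 FPKM. GGT1, a brush-border enzyme of glutathione breakdown, had 12.7, 19.8 and 15.4 FPKM. SLC5A2, the sodium-glucose cotransporter SGLT2, had 5.72, 9.13 and 6.77 FPKM. All 3 of these were lowest in library 1 and highest in library 2. CUBN, the receptor cubilin, was present at 2.000, 1.69 and 2.17 FPKM from 278, 274 and 390 reads. Its partners in protein uptake were not: LRP2 (megalin) had 1 read in all and AMN had none, which allows up to 0.0515 FPKM (3 reads over the 3 libraries). SLC34A1, the main phosphate transporter, also had 1 read. SLC5A1, SLC22A6, SLC22A8, SLC6A19 and SLC9A3 had no read.

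The thick ascending limb list was carried by CLDN16 and EGF. CLDN16, the claudin of calcium and magnesium uptake, had 33.8, 29.997 and 32.01 FPKM, with all libraries close. EGF had 13.8, 9.93 and 9.04 FPKM. UMOD, the most abundant urinary protein, and KCNJ1, the ROMK channel, had no read, and SLC12A1, the target of loop diuretics, had 1. A count of 0 allows up to 0.0281 FPKM for UMOD. Of distal genes, the regulatory kinases were present, with STK39 at 26.99, 13.6 and 17.7 FPKM, WNK1 at 21.6, 13.8 and 17.2 FPKM and WNK4 at 7.45, 9.06 and 9.04 FPKM, while their target SLC12A3 had 3 reads in all and CALB1, TRPV5, PVALB and SLC8A1 had none.

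Among principal cell genes, the regulators SGK1 and NEDD4L had higher levels than the channel genes. SGK1, the aldosterone-induced kinase, had 352, 97.1 and 147 FPKM, and library 1 was far above the others. NEDD4L, the ubiquitin ligase that removes the sodium channel, had a narrower 61.4, 49.7 and 54.2 FPKM. SCNN1A, the alpha chain of the epithelial sodium channel, had 3.54, 3.80 and 4.49 FPKM, but SCNN1B had 9, 8 and 4 reads and SCNN1G 0, 0 and 1. AQP2 had no read, which allows up to 0.0166 FPKM. The water channel gene AQP3, given with the aquaporins below, was present at a mean of 2.09 FPKM. AVPR2, the vasopressin receptor, had 4, 5 and 4 reads, the steroid-inactivating HSD11B2 had 11, 11 and 2 and the mineralocorticoid receptor NR3C2 had 0, 5 and 1.

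For intercalated cells, 2 members accounted for nearly the whole list. CA2, the cytosolic carbonic anhydrase, had 108, 289 and 199 FPKM, with every library apart. ATP6V1B1, a proton pump subunit of acid-secreting cells (chromosome 10, 69265895 to 69287765, plus strand), had a very even 83.3, 83.5 and 86.4 FPKM. The other defining genes were at or near 0, with no read for SLC4A1, FOXI1, ATP6V0A4, ATP6V1G3 and KIT, and 11, 6 and 7 reads for SLC26A4 (pendrin). Of podocyte genes, PODXL, an apical sialoprotein, had 38.95, 37.3 and 37.99 FPKM and SYNPO had 8.63, 6.10 and 6.22 FPKM, while NPHS1 had no read.

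Genes associated with tubule injury and loss of differentiation were present for 9 of 16 (56.25%, near the 52.3% of protein-coding genes), with a median of 11.1 FPKM. Besides SPP1, VIM and CLU, HAVCR1, known as kidney injury molecule KIM-1, had 85.04, 61.2 and 69.7 FPKM. DCDC2 had 48.5, 21.2 and 31.7 FPKM and ITGB6 had 13.95, 17.6 and 17.7 FPKM. LCN2, another injury marker, gave 1, 4 and 0 reads, and VCAM1, MMP7 and KRT20 gave none. CCL2 was read in library 1 only, at 9.87, 0 and 0 FPKM.

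**Figure D2:**
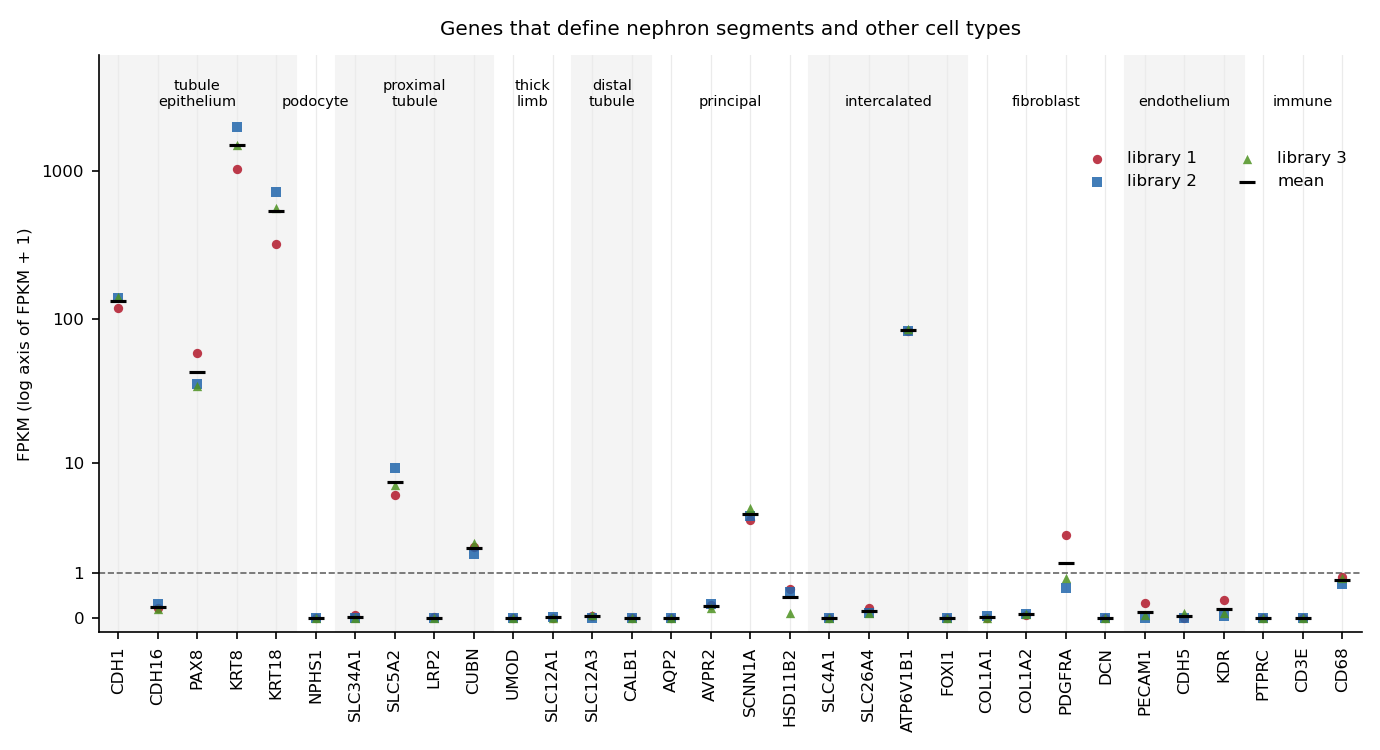
FPKM (log axis of FPKM + 1) of selected genes that define tubule epithelium, nephron segments and other cell types; points are the 3 libraries, the black bar is their mean and the dashed line is 1 FPKM. Of the genes drawn outside the epithelial set, ATP6V1B1, SLC5A2, SCNN1A and CUBN are above the line in every library.

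Most markers of cells other than epithelium were below 1 FPKM. Fibroblast and smooth muscle genes had 1 of 15 members present and summed to 4.77, 3.52 and 3.19 FPKM. COL1A1, COL1A2 and COL3A1 gave at most 5 reads in any library, and DCN, LUM and ACTA2 gave none. MYH11, a smooth muscle myosin, was the member present, at 1.39, 2.67 and 2.26 FPKM. Endothelial genes had 2 of 12 present. FLT1, a VEGF receptor, had 24.95, 13.7 and 17.2 FPKM and EGFL7 11.6, 18.8 and 12.1 FPKM, whereas KDR had 35, 3 and 12 reads, PECAM1 9, 0 and 2 and CDH5 0, 0 and 3. Immune genes had 0 of 12 present and summed to 2.07, 2.55 and 2.30 FPKM, with no read of PTPRC or CD3E and CD68 at 0.870, 0.685 and 0.840 FPKM.

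Tight junction genes were led by the claudins, which summed to 853, 1490.1 and 1154 FPKM. CLDN7 (chromosome 5, 32224210 to 32225795, minus strand) had 461, 896 and 712 FPKM, or 54.01, 60.2 and 61.7% of the summed FPKM of all 19 claudins found. CLDN4, a claudin that limits sodium passage, had 203, 327 and 219 FPKM and CLDN3 had 57.2, 126 and 91.03 FPKM. CLDN7, CLDN4 and CLDN3 did not overlap in range, and each was lowest in library 1 and highest in library 2. CLDN3 overlapped with CLDN1, at 64.2, 61.9 and 52.3 FPKM. CLDN12, at 28.4, 39.01 and 39.1 FPKM, overlapped with CLDN16. CLDN2, the cation and water pore that gives leaky epithelia their low resistance (chromosome X, 80456159 to 80489644, plus strand), had 0.844, 1.65 and 1.45 FPKM from 57, 130 and 127 reads. CLDN2 was thus below 1 FPKM in library 1. CLDN8, CLDN10, CLDN14 and CLDN19 gave at most 2 reads in any library, and CLDN11, CLDN17, CLDN18, CLDN20 and CLDN25 gave none.

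Of the scaffolds and other membrane proteins of the tight junction, 14 of 20 were present. F11R, the adhesion molecule JAM-A, had 91.6, 151 and 128 FPKM and CXADR, the coxsackie and adenovirus receptor, had 127, 96.2 and 109.8 FPKM. Their ranges overlapped and CXADR was the higher in library 1. The scaffold TJP1 (ZO-1), at 25.8, 15.6 and 21.2 FPKM, was above TJP3, at 6.23, 9.45 and 7.34 FPKM, without overlap. OCLN (occludin) had 13.8, 12.3 and 13.5 FPKM, and the tricellular proteins LSR and MARVELD2 had 47.6, 74.1 and 60.5 FPKM and 6.30, 11.9 and 9.37 FPKM. JAM2 gave 1, 1 and 0 reads, and ILDR2 and MAGI2 gave none.

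Among 16 cadherins, CDH1 held 48.1, 49.99 and 49.2% of the summed FPKM. CDH6, a kidney cadherin of the developing tubule, had 88.9, 88.7 and 95.99 FPKM, below CDH1 in every library and without overlap. CDH3 had 22.3, 24.97 and 25.5 FPKM, CDH17 7.56, 13.9 and 12.97 FPKM and the mesenchymal CDH2 4.58, 3.28 and 4.85 FPKM. Catenins, which link cadherins to actin, did not separate. CTNNA1 had 305, 243 and 261 FPKM, CTNNB1 319.7, 247 and 256 FPKM and JUP 207, 263 and 239 FPKM, and a different member led in each library. VCL (vinculin) had 35.7, 49.96 and 46.3 FPKM.

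Desmosome genes were present for 10 of 14. PKP4, a plakophilin-related protein, led with 156, 135 and 149 FPKM, and DSG2 followed with 119, 106 and 119.6 FPKM, with no overlap. Desmogleins and desmocollins typical of stratified epithelium were read as well, DSG3 at 30.4, 39.02 and 45.8 FPKM and DSC3 at 33.8, 19.4 and 26.1 FPKM, whereas DSG1 and DSC1 gave at most 8 reads in any library. The plaque protein DSP had 32.3, 22.9 and 26.9 FPKM, and PKP1 had no read.

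Of the gap junction genes, GJB5 had 14.2, 34.9 and 25.6 FPKM, lowest in library 1 and highest in library 2. GJA1, which encodes the widespread connexin 43, had no read, which allows up to 0.0583 FPKM.

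Keratins were present for 6 of 21 found. KRT19 had 605, 1561 and 1205 FPKM, overlapping with KRT8. KRT14, a keratin of basal layers in stratified epithelium, had 483, 91.4 and 190.4 FPKM and was the only 1 of the 6 that was highest in library 1. Its usual partner KRT5 had 0.533, 0.50 and 0.318 FPKM. KRT80 and KRT10 had 18.1, 23.8 and 20.3 FPKM and 8.67, 14.3 and 12.5 FPKM. KRT7, a keratin of ducts, was not matched in the table and was not analysed here.

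**Figure D3:**
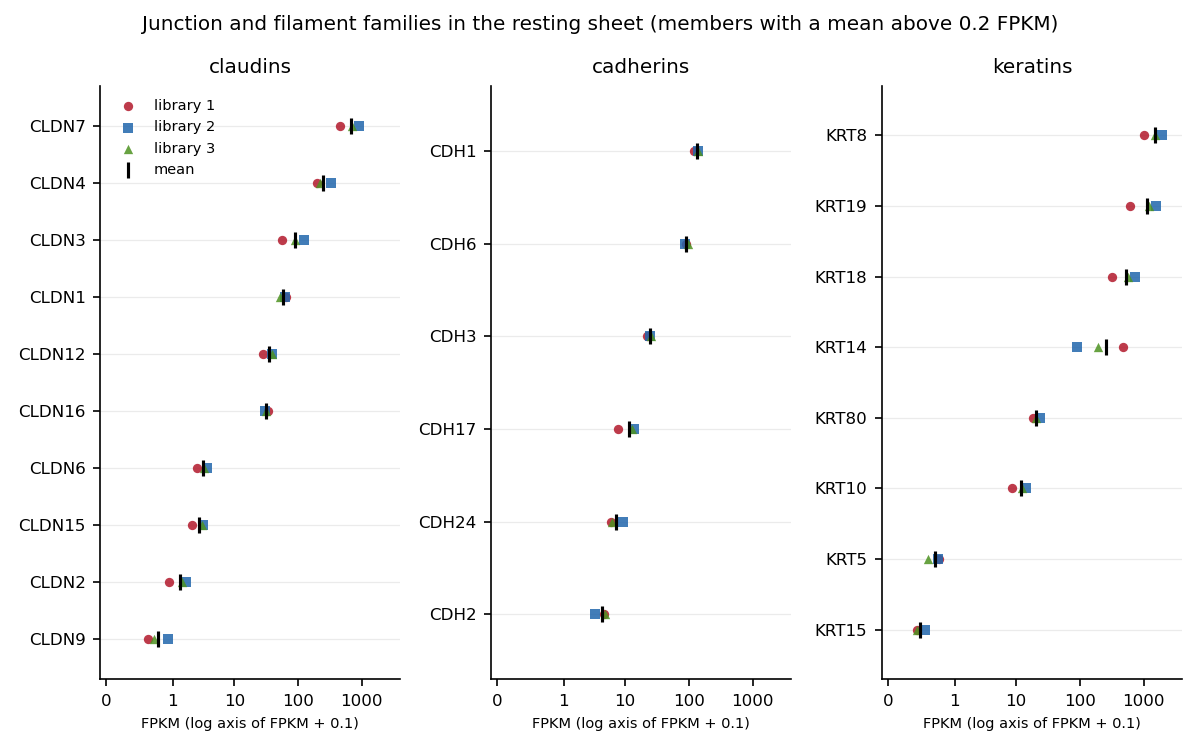
FPKM (log axis of FPKM + 0.1) of claudins, cadherins and keratins, ordered by median; points are the 3 libraries and the bar is their mean. CLDN7, CDH1 and KRT8 lead, and CLDN2 lies near 1 FPKM.

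Polarity and matrix-adhesion genes had no dominant member. Polarity genes numbered 16 of 22, with LLGL2, PRKCI and PARD6B at 49.997, 74.8 and 62.4 FPKM, 86.2, 52.8 and 58.1 FPKM and 63.6, 43.5 and 57.7 FPKM, all overlapping. LLGL2 belongs to the lateral scribble module and the other pair to the apical PAR complex. The apical determinant CRB3 had 9.97, 15.8 and 11.9 FPKM and CRB1 had no read. Integrins numbered 13 of 25 (52.0%), near the 52.3% of protein-coding genes. ITGB1 had 131, 89.01 and 108 FPKM, ITGB3 91.3, 97.4 and 98.3 FPKM and ITGB4, the hemidesmosome chain, 79.7, 96.8 and 89.4 FPKM, with overlapping ranges. ITGA2 and ITGA3 were the leading alpha chains, at 99.7, 63.4 and 85.1 FPKM and 48.4, 85.7 and 73.9 FPKM. Of the laminin chains, 7 of 12 were present (58.3%, also near that share). Of laminin-332, LAMB3 had 120.3, 102 and 90.9 FPKM and LAMA3 44.2, 18.8 and 21.9 FPKM, both highest in library 1. The chains of laminin-511 were LAMA5 at 47.9, 52.6 and 47.1 FPKM, LAMB1 at 76.2, 80.5 and 79.9 FPKM and LAMC1 at 52.8, 35.9 and 40.4 FPKM.

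Among transport genes, the sodium pump's beta chains ATP1B1 and ATP1B3 had 180.4, 189 and 176 FPKM and 210.3, 136 and 153 FPKM, with overlapping ranges. Regulatory FXYD subunits were lower, FXYD5 at 21.05, 30.05 and 27.5 FPKM and FXYD2, the kidney gamma chain, at 24.9, 10.2 and 6.61 FPKM.

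Chloride-coupled cotransporters varied between libraries. SLC12A2 (NKCC1), the basolateral chloride loader, had 122, 28.96 and 33.5 FPKM, and SLC12A7, a potassium-chloride cotransporter, had 26.8, 31.9 and 25.04 FPKM. SLC12A2 led in libraries 1 and 3 and SLC12A7 in library 2, and the share of SLC12A2 in the list was 65.8, 26.3 and 33.4%. SLC4A7, a sodium-bicarbonate cotransporter, had 79.3, 16.9 and 24.7 FPKM, likewise highest in library 1, whereas the anion exchanger SLC4A2 had 50.4, 60.6 and 47.1 FPKM and SLC26A6 19.8, 22.6 and 19.4 FPKM. In the list of sodium-proton exchangers the leader, SLC9A3R1 at 144, 189.5 and 133 FPKM, is the scaffold NHERF1 and not an exchanger, and the apical exchanger SLC9A3 that it binds had no read.

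Aquaporins were low. Of 12 aquaporins, 2 of 12 were present, and none passed 3 FPKM in any library. AQP3 had 2.67, 2.09 and 1.52 FPKM and AQP5 1.90, 1.53 and 1.01 FPKM, and a different aquaporin led in each library. Of the osmolyte genes, AKR1B1, which makes sorbitol, had 338, 130.1 and 118 FPKM. The taurine transporter SLC6A6 had an even 67.8, 56.3 and 55.9 FPKM. The betaine transporter SLC6A12 (chromosome 27, 42269697 to 42296182, minus strand) had 24.1, 0.392 and 0.321 FPKM, which is 1161, 22 and 20 reads, so its mean of 8.27 ± 13.7 rests on library 1. The inositol transporter SLC5A3 had 4, 1 and 2 reads, and NFAT5, the osmotic response factor, had 5.97, 2.23 and 3.79 FPKM.

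Of the glucose transporters, SLC2A1 (GLUT1) had 101, 178 and 146 FPKM, or 73.7, 80.7 and 79.7% of the glucose transporter list, and the next member, SLC2A8, had 12.1, 17.4 and 12.03 FPKM. SLC2A2, SLC2A5 and SLC5A1 had no read. Among amino acid transporters SLC1A5, which takes up glutamine, had 133, 257 and 235 FPKM, and the large neutral amino acid transporter SLC7A5 and its heavy chain SLC3A2 had 88.8, 147 and 133 FPKM and 37.3, 55.9 and 48.5 FPKM. The ranges of SLC1A5 and SLC7A5 overlapped, and SLC7A5 led by reads. SLC38A2, which responds to amino acid supply, was highest in library 1, at 129, 53.5 and 82.1 FPKM. The proximal tubule cystine exchanger SLC7A9 had no read.

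Of the drug pumps and organic ion carriers, 10 of 22 were present. SLCO4A1 had 94.5, 67.1 and 73.9 FPKM and ABCC4 (MRP4) 70.8, 35.2 and 41.4 FPKM. ABCB1, the P-glycoprotein pump, had 8.30, 7.28 and 7.87 FPKM and ABCC2 (MRP2) 3.03, 3.44 and 3.27 FPKM. ABCG2 had no read, nor did SLC22A6 and SLC47A1. Chloride channel genes were led by CLIC1 at 436, 574 and 524 FPKM, an intracellular channel-like protein. CFTR had 1 read in all and ANO1 none, while the scramblase ANO6 had 65.2, 37.1 and 43.2 FPKM. Potassium channels KCNK1 and KCNN4 had 36.99, 39.5 and 45.5 FPKM and 25.05, 36.4 and 30.5 FPKM, with KCNK1 higher in each library and no overlap. By reads KCNN4 led instead, so this order depends on the length used. KCNK5 had 29.98, 11.4 and 12.7 FPKM, highest in library 1.

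Growth factor receptors were led by MET. MET, the hepatocyte growth factor receptor that drives scattering and tubule formation of MDCK cells, had 131, 118 and 133 FPKM, or 45.2, 46.6 and 49.7% of its list. IGF1R had 45.7, 33.9 and 36.2 FPKM and the collagen receptor DDR1 30.3, 25.96 and 24.7 FPKM. ERBB3 had 23.5, 32.2 and 30.2 FPKM and ERBB2 14.8, 21.2 and 17.4 FPKM, above EGFR at 4.48, 3.98 and 3.55 FPKM and ERBB4 at 2.85, 2.48 and 2.68 FPKM without overlap. Of their ligands, NRG1 had 29.8, 24.3 and 29.3 FPKM and HBEGF 5.28, 5.54 and 6.25 FPKM, and EREG (epiregulin) had 89.4, 8.39 and 12.03 FPKM. EREG was the highest gene of the ERBB list in library 1 but not in the other two. AREG, BTC and NRG4 had no read.

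Of the Eph receptors, which bind ephrins on neighbouring cells, EPHA2 had 129.8, 111 and 117 FPKM and EPHA1 68.7, 90.8 and 72.3 FPKM, and their ligand EFNA1 46.2, 65.3 and 61.4 FPKM. EPHB2 had 46.7, 45.1 and 45.6 FPKM and its ligand EFNB1 26.6, 27.2 and 27.4 FPKM, both nearly equal in the 3 libraries. Among receptors of the TGF-beta and BMP group, ACVR1 led with 28.5, 33.02 and 34.1 FPKM, and TGFBR2 and TGFBR1 had 19.5, 20.1 and 19.6 FPKM and 15.04, 8.32 and 10.8 FPKM. JAG1 had 21.8, 13.3 and 15.4 FPKM and NOTCH2 9.32, 7.89 and 9.12 FPKM, and NOTCH3 gave 23, 5 and 15 reads. FZD6 led the Frizzled receptors with 70.4, 64.02 and 76.7 FPKM and did not overlap with FZD5, at 7.46, 29.4 and 16.2 FPKM, which varied more. LGR5 had 1 read in all and LGR4 6.85, 6.46 and 6.85 FPKM.

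Of the hormone and nucleotide G protein-coupled receptors 9 of 37 were present. ADRA2A, an alpha-2 adrenergic receptor, had 37.5, 109.7 and 74.7 FPKM, and PTGER2, a prostaglandin E2 receptor, had 63.4, 56.5 and 53.2 FPKM. These overlapped, and PTGER2 was the higher in library 1. The nucleotide receptor P2RY2 had 30.5, 38.9 and 37.5 FPKM and the protease receptor F2RL1 13.1, 24.9 and 20.3 FPKM. Receptors for angiotensin (AGTR1, AGTR2), endothelin (EDNRA, EDNRB) and calcitonin (CALCR) had no read. Among nuclear receptors, NR1H2, the oxysterol receptor LXR-beta, led by median with 53.4, 59.9 and 57.1 FPKM. PPARG had 53.2, 50.5 and 48.96 FPKM and did not overlap with it. AHR, the dioxin receptor, led in library 1 at 68.2, 23.9 and 34.9 FPKM, and NR2F6 led in library 2 at 33.1, 65.9 and 41.7 FPKM. The glucocorticoid receptor NR3C1 had 5.92, 4.93 and 5.12 FPKM, and ESR1 and PGR had no read.

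**Figure D4:**
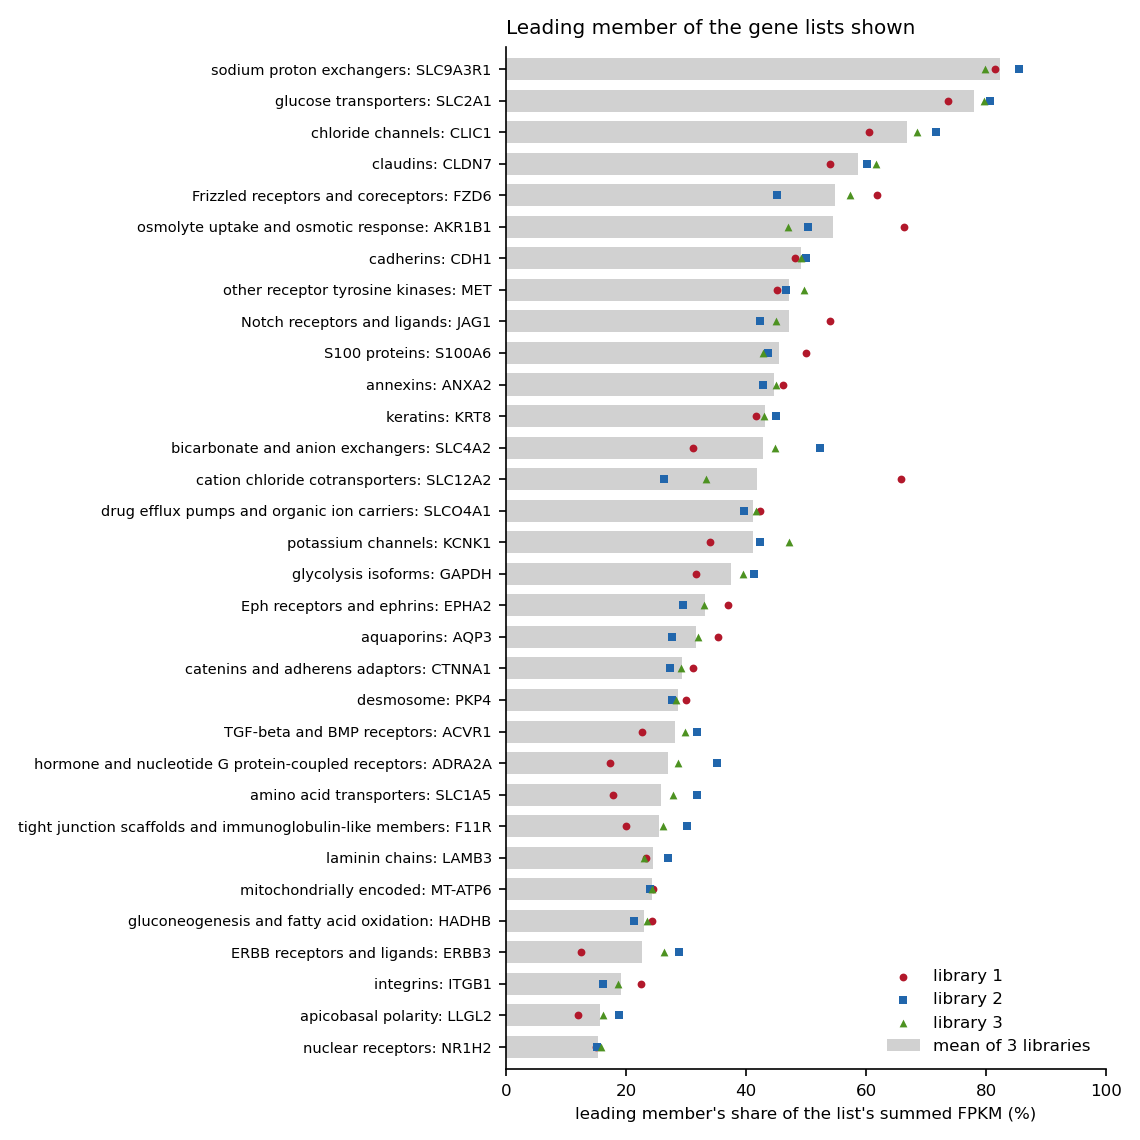
Share of summed FPKM (%) held by the leading member of the gene lists drawn, with the mean of 3 libraries as a bar and each library as a point. SLC9A3R1, SLC2A1 and CLIC1 hold the largest mean shares, and the share of SLC12A2 differs most between libraries.

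Across the 34 lists of related genes, the same member led in all 3 libraries in 22. In 18 the lowest library of the leader by median was above the highest library of the member next by median. Members further down were not compared. The 18 thus include the nuclear receptors, where AHR led in library 1 and NR2F6 in library 2. In 8 lists the leader by median held over 50% of summed FPKM on average. By reads instead of FPKM, the leader was another gene in 15, so those orders depend on the length used. Among these were the integrins, where ITGB3 led by reads, and the ERBB list, where ERBB2 did. The leader by reads was likewise KCNN4 for potassium channels, TGFBR2 for TGF-beta and BMP receptors and AHR for nuclear receptors.

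Among glycolytic genes, after GAPDH came LDHA with 1910.4, 915 and 1062 FPKM, ENO1 with 816, 952 and 891 FPKM, PGAM1 with 791, 812 and 830.1 FPKM and PKM with 378, 392 and 350.2 FPKM. LDHA was highest in library 1, while PGAM1 and PKM were even. However, 7 rows matched LDHA, so reads of near-identical copies could have been split. The gluconeogenic G6PC had 3 reads in all. PCK2, the mitochondrial form, had 33.7, 52.8 and 55.7 FPKM and the cytosolic PCK1 had 1.52, 0.696 and 1.53 FPKM, without overlap. Fatty acid oxidation was read through HADHA and HADHB, both subunits of the trifunctional protein, at 127, 115 and 116 FPKM and 124, 112 and 119.9 FPKM.

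Cell cycle genes were present for 29 of 30, with a median of 56.8 FPKM. RRM2, the regulated chain of ribonucleotide reductase, had 247, 307 and 313 FPKM, PCNA 172, 149 and 134 FPKM and CCNB1 108, 109 and 125 FPKM. MKI67 had 22.6, 19.4 and 22.03 FPKM. CDKN2A had no read and CDKN1A had 40.02, 25.8 and 21.8 FPKM. Cholesterol synthesis and uptake genes were present for 23 of 23, led by FDPS at 249, 256 and 223 FPKM and CYP51A1 at 336, 203 and 201 FPKM.

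Membrane-binding and signalling groups had high members too. Annexins were present for 11 of 12, ANXA2 at 1344, 1478 and 1536 FPKM and ANXA1 at 759.8, 943 and 960.4 FPKM, without overlap. S100A6 and S100A11 had 3249.8, 2909 and 2914 FPKM and 1852, 1940.5 and 2101 FPKM. NDRG1, a hypoxia-responsive gene, had 306, 356 and 328 FPKM, while CA9 had 0.894, 0.939 and 0.575 FPKM. Of the immediate early genes 26 of 29 were present, among them MYC at 94.2, 151 and 163 FPKM, IER3 at 342, 131 and 123 FPKM and FOS at 28.01, 44.03 and 37.02 FPKM. YAP and TEAD targets were present for 18 of 22, with CYR61 at 106, 94.6 and 104 FPKM and CTGF at 15.2, 4.80 and 5.51 FPKM, so CYR61 was even and CTGF was highest in library 1. Interferon-stimulated genes were present for 23 of 36, led by SAMD9L at 42.9, 40.7 and 39.5 FPKM.

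The prostaglandin pathway was marked by PTGS2. PTGS2, the inducible cyclooxygenase (chromosome 7, 19668011 to 19674918, minus strand), had 1248, 129.9 and 292 FPKM from 58675, 7109 and 17778 reads, while the constitutive PTGS1 had no read. The phospholipase PLA2G4A had 73.3, 53.3 and 62.5 FPKM, the synthase PTGES 0.935, 0.777 and 0.891 FPKM and PTGES3 134, 109 and 117 FPKM. HPGD, which breaks prostaglandins down, had 2, 1 and 0 reads. Inflammatory genes mostly fell short of 1 FPKM, with 6 of 20 present, led by CSF2 at 59.4, 15.5 and 29.3 FPKM and ICAM1 at an even 27.6, 27.2 and 26.8 FPKM. IL6 and TNF gave at most 2 reads in any library.

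The spread between libraries was small for most genes and concentrated in library 1 for the rest. Among 9059 genes with a mean of at least 5 FPKM, the median ratio of the highest to the lowest library was 1.34 and the median coefficient of variation was 15.1%. A ratio of at least 2 was found for 828 (9.14%), at least 4 for 80 and at least 10 for 12. Genes with no read in a library have no finite ratio. They were counted in the 828 but not in the 80 or the 12. Of the 828, library 1 was the one farthest from the middle value in 648 (78.3%), as the highest in 340 and the lowest in 308. Library 2 was farthest in 151 and library 3 in 29. Without library 1 the count was 70, against 317 without library 2 and 762 without library 3. A ratio over 2 libraries is by construction no larger than over 3. Counting noise was a minor part for well-read genes. For genes with at least 1000 reads on average, the coefficient of variation beyond counting noise was 15.4% and that of counting noise 2.32%. For genes with 10 to 30 reads these values were 38.1% and 24.0%.

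Of the genes with the largest ratio, SLC6A12 reached 75.2 times between library 1 and library 3. CCL24, a chemokine, had 330, 6 and 0 reads, so its level of 59.8, 0.935 and 0 FPKM has no finite ratio. PTGS2 had a ratio of 9.61 and EREG of 10.7, and the secreted protease C1S (40.9, 4.80 and 7.32 FPKM), the guidance factor SLIT2 (39.7, 5.001 and 9.10 FPKM) and the vesicle protein SCAMP5 (97.96, 13.4 and 19.1 FPKM) had the same order, with library 1 above library 3 above library 2. CHAC1, a glutathione-degrading enzyme, and IFNGR2, an interferon-gamma receptor chain, went the other way. CHAC1 had 1.27, 12.1 and 16.1 FPKM and IFNGR2 had 1.27, 10.8 and 9.54 FPKM. MARVELD1, GART and ADI1 also passed a ratio of 10. They were lowest in libraries 1, 3 and 2 respectively, at 1.48, 20.1 and 15.1, 31.2, 14.1 and 1.53 and 57.7, 7.51 and 149.9 FPKM. MARVELD1 rests on only 5, 79 and 66 reads over a model of 264 bases. GART, ADI1 and IFNGR2 were named by protein match, and 2 rows matched each symbol. SLC6A12, CCL24 and PTGS2 were named by protein match too, from 1 row each.

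**Figure D5:**
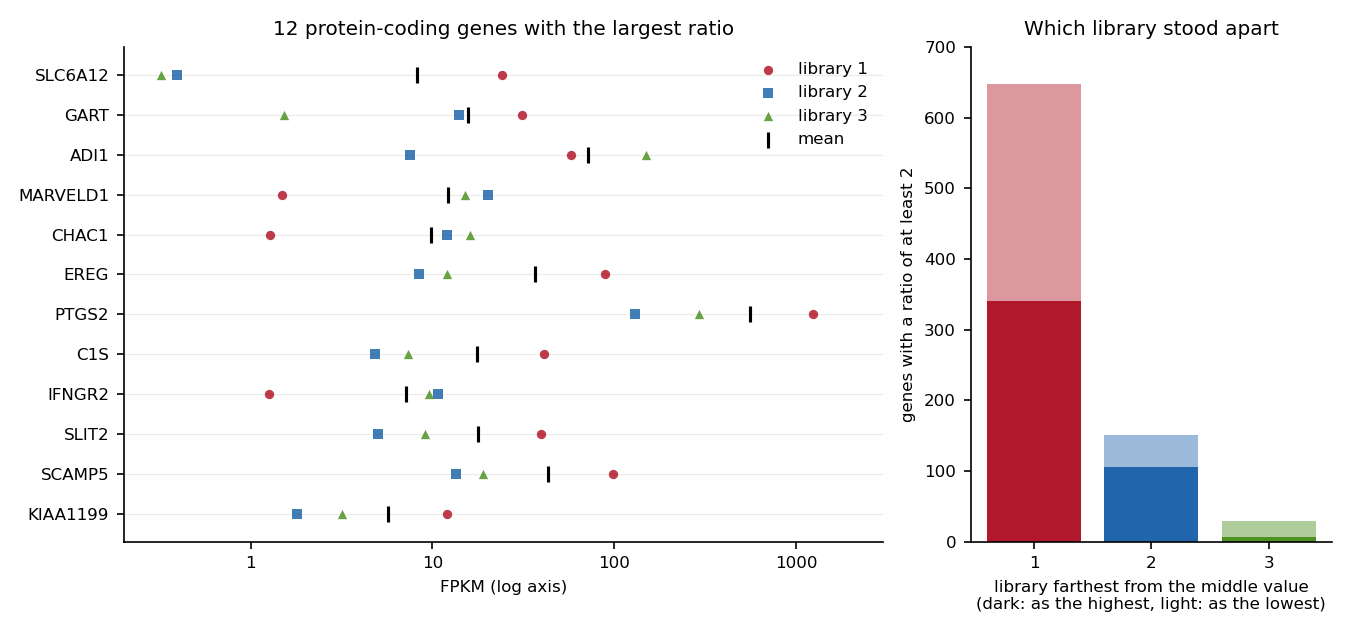
Left, FPKM (log axis) of the 12 protein-coding genes with the largest ratio between libraries, with the mean as a bar. Right, for the 828 genes with a ratio of at least 2, the library farthest from the middle value, 648 of them library 1.

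Several gene groups stood mostly on the same side in 1 library. Over all 9059 genes, library 1 was the highest in 40.3% and the lowest in 45.6%. Library 2 was the highest in 42.4% and the lowest in 38.1%, and library 3 in 17.3% and 16.3%. Among genes with a mean of at least 5 FPKM, library 1 was the highest for 5 of 5 inflammatory genes and library 2 the lowest for 4. Of 22 cholesterol genes, 19 were lowest in library 3 and 14 were highest in library 1. Library 1 was the lowest for 16 of 18 interferon-stimulated genes, 15 of 22 immediate early genes and 5 of 6 keratins. In the same lists library 2 was the highest for 13, 16 and 5 genes. ISG15 had 15.3, 38.6 and 23.5 FPKM. RSAD2, at 0.524, 8.10 and 2.28 FPKM, had a mean below 5 FPKM and is not among the 18 counted. INSIG1, a sterol-response gene, had 161, 80.1 and 68.9 FPKM. NFKBIA had 25.7, 5.97 and 8.93 FPKM. Cell cycle genes moved little, and 1 of 29 reached a ratio of 2. At the even end were the receptor-like kinase RYK (90.8, 90.98 and 91.8 FPKM), UBAP2L (73.2, 73.5 and 72.7 FPKM), the survivin gene BIRC5 (123, 124 and 122 FPKM) and NUDT21 (114, 116 and 116 FPKM), each with a ratio of at most 1.02. These were followed by SF3B6, PRDX4, TBRG1, SLC35F2, TMBIM1 and PSMD11.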

How the data were processed

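The 3 wild-type control libraries were analysed. The labels' protocols describe oligo(dT) enrichment and random-hexamer cDNA. The submitters' processing notes name CASAVA, FastQC, HISAT2 2.0.5 and the CanFam3.1 build. Counter, annotation release and strand use: not given in the sources used here. Whole-number counts and FPKM, as deposited by the authors, cover 26178 genes. The deposited FPKM were found to equal counts divided by gene length in kilobases and by an effective library size that was 1.01 to 1.04 times the library's total. Of protein-coding genes, 56.3% have a length that is a multiple of 3, so many models hold coding sequence only.

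Symbols came from the name column (17598 genes) or the protein match in the description (5701), which is less certain; 2879 genes had none, and 96.5% of 1040 entries in 56 gene lists were found. Pseudogene and retrotransposed rows were not used for a symbol, nor were unspliced nuclear rows that rest on a protein match alone. For a symbol on several rows, spliced rows were preferred, then rows that bear a gene or dog protein name. The row with most reads came last in this order.

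Values were computed with Python 3.11.15 and pandas 2.3.3. No test was run, because 1 group gives none. Paralogues were compared by whether their ranges over the 3 libraries overlap. Upper limits for 0 reads are 3 counts over the 3 libraries and cover counting error only. They do not cover errors in a gene model or in the row chosen for a symbol, so 0 reads do not prove absence. Ratios used genes with a mean of at least 5 FPKM and no pseudocount, and correlations used log2(FPKM + 1). The estimate of spread beyond counting noise was checked on simulated counts. The closest pair of libraries, 2 and 3, differed by a chi-square of 12.2 per gene, so none was a repeat deposit.

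The rule for named genes took the 5 markers, the 25 most abundant, the 3 leaders of each list, segment-defining members, the 10 leading factors, and the 12 largest and 10 smallest ratios. The 12 largest held 4 small RNA genes, and protein-coding genes were named in their place after the values were seen, as were list members outside the rule. The members and lists were chosen with earlier results of these data known. Results for some genes are not reported here, in the text or the figures.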

Additional observations from a re-analysis of the deposited data

How the results depend on the processing

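The number of genes present, 11483, became 11659 to 12444 under a threshold of 0.5 FPKM or 10 reads, the mean of the libraries, rescaling to a fixed sum and leaving out each library. The share of the top 100 genes was 25.4% without mitochondrial genes, 29.1% for genes of at least 500 bases and 17.9% of counts. Genes with a ratio of at least 2 numbered 1899 at a mean of at least 1 FPKM and 5911 with no filter, and 70 to 762 when each library was left out, the lowest without library 1. The median SD of log2(FPKM + 1), 0.219, ran from 0.131 to 0.258, and the spread beyond counting noise, 17.8% over genes with at least 100 reads, from 12.9% to 27.1%. Rescaling libraries by their median ratio left 819 genes with a ratio of at least 2. Of 280 list counts, 271 stayed within 1.5 times. Of 34 leading shares, 24 moved by over 1 SD when taken from reads. With 3 values, a mean without 1 library always lies near the spread of the 3, so leaving out libraries says little on single genes. No paired analysis was possible because the values come from 1 group and from no test. Depth limits genes under about 1 FPKM.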
